A study of Sus scrofa with 4 samples.

Results

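Induced neural stem cell-like cells (iNSLCs) are the intermediate step of a porcine reprogramming series that leads from skin fibroblasts to induced pluripotent stem cells (iPSCs). The genes described here were found by setting the iNSLC library against all 3 other libraries. A gene whose iNSLC level lay above every other library is called a transient peak, and a gene whose level lay below every other library is called a transient trough. Of 25880 genes in the deposited table, 14137 reached a level of 1 in any library, in counts per 1e+06 counts (CPM), scaled by TMM for library size and composition. Among these, 3421 (24.2%) lay above and 3404 (24.1%) below every other library in iNSLCs. The other 51.7% lay between the lowest and highest of the other libraries. Rank alone asks little of a gene, so the account below turns on those that stood clear of the rest. A 2-fold peak had at least 10 CPM in iNSLCs and at least 2 times the level of the highest other library. A 2-fold trough had at least 10 CPM in each other library and at most 1/2 of the lowest of them. There were 384 2-fold peaks and 296 2-fold troughs, 680 genes in all.

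All cells came from 1 post-neonatal pig (N01F). Ear skin fibroblasts (n = 1 library, passage 1) were the start. The iNSLCs (n = 1, passage 1) grew as dome-shaped colonies after the fibroblasts received the EP-B episomal vectors, in NSM, a medium first used for naive-state pluripotent cells. The factors on EP-B are OCT4, KLF4, KLF2, SOX2, NANOG, LIN28, L-MYC, GLIS1 and KDM4D, next to mp53DD, a mouse p53 that acts as a dominant negative, and EGFP as a reporter. The iPSCs (n = 2 clones, passage 3) arose when such cells were moved to an ESC medium based on basic FGF and knockout serum replacement. This medium was supplemented with TGF-β1, activin A and IWP2, which blocks the release of WNT ligands. NSM, in turn, held chemical inhibitors according to the paper. Cell state, medium and passage thus changed together, and their effects cannot be told apart. The study's induction used mouse feeder cells, and reads from feeder cells or vectors, if any, were not separated from those of the pig genes. Total counts were 62421521 in fibroblasts, 25784594 in iNSLCs, and 21640374 and 41296933 in iPSC clones 1 and 2. With 0 counts a gene may still have lain at up to 0.0648, 0.105, 0.127 and 0.0656 CPM, respectively, the level of 3 counts. Such limits, and the 95% intervals given for ratios, cover counting error only. Neither the fibroblasts nor the iNSLCs were replicated, so a difference between them is given with its size and a counting interval and was not tested.

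Reprogramming by defined factors first silences the genes of the starting cell and later activates the endogenous pluripotency network. Cells on this path can pass through states that neither the start nor the end shows, and partially reprogrammed cells often express lineage genes that pluripotent cells keep low. Neural stem cells are dividing precursors of neurons and glia that express SOX-family factors, the RNA-binding protein MSI1 and the intermediate filament protein nestin, and they pass on to proneural basic helix-loop-helix factors as they commit to neurons.

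The neural stem cell label was checked first. The 12 markers listed for it were, like the other lists, chosen with earlier results of these data known. Of these, DCX, FABP7 and PROM1 were 2-fold peaks, and DCX and FABP7 stood out most. DCX, a microtubule protein of migrating neuroblasts, lay at 5.38 CPM in fibroblasts, 54.6 CPM in iNSLCs, and 1.44 and 1.68 CPM in the clones. FABP7, a fatty acid-binding protein of radial glia, reached 83.0 CPM in iNSLCs, with 15 and 22.5 CPM in the clones and 0 counts in fibroblasts. For both genes the iNSLC library was the highest, but the next highest was the fibroblast library for DCX and an iPSC clone for FABP7.

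Among the markers below 10 CPM, SOX1 and HES5 also had their highest level in iNSLCs. SOX1, an early neuroectodermal factor, lay at 2.16 CPM there, with 0 counts in fibroblasts and 2 and 4 counts in the clones. HES5, an effector of Notch, lay at 9.04 CPM in iNSLCs against 0 counts in fibroblasts and 0.211 and 0.153 CPM in the clones.

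The best known stem cell markers did not single out the intermediate. MSI1 was at 0.345 CPM in fibroblasts, 151 CPM in iNSLCs, and 85.2 and 97.1 CPM in the clones, a margin of 1.56-fold over clone 2. SOX2 was at 0.281, 134, 211 and 254 CPM, and NES, which encodes nestin, at 30.6, 384, 461 and 505 CPM in the same order. SOX2 and NES were thus higher in both clones than in iNSLCs. PAX6, a regulator of neural progenitors, was highest in fibroblasts (21.5 CPM), with 14.6 CPM in iNSLCs and 2.32 and 6.71 CPM in the clones; with total counts in place of TMM it was highest in iNSLCs. VIM was highest in fibroblasts, and ZNF521 reached 60.3 CPM in iNSLCs against 41.6 CPM in fibroblasts. With total counts, HES5 and ZNF521 passed the criteria for a 2-fold peak as well. The level of a bulk culture cannot tell fewer cells of a type from less RNA per cell, so the share of iNSLCs that carried any marker was not measured.

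**Figure D1:**
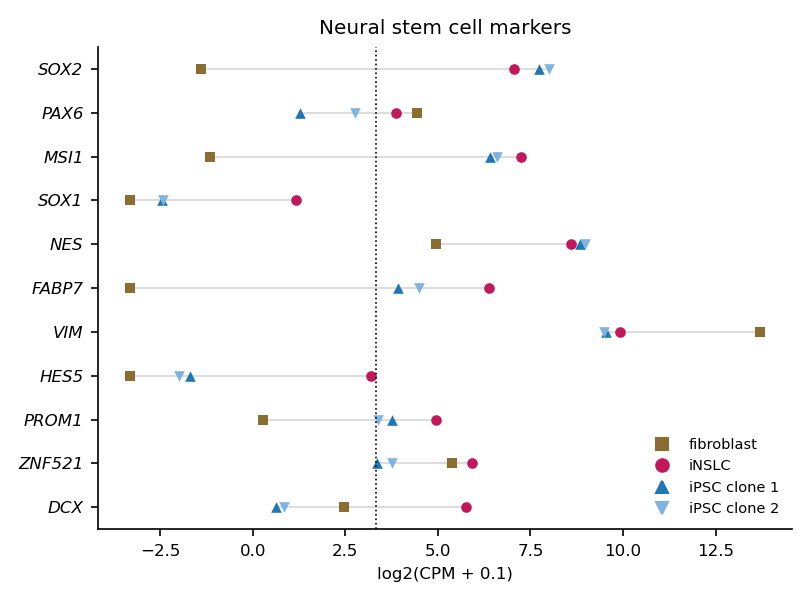
Levels of the neural stem cell markers in each library, on a log2(CPM + 0.1) axis; each symbol is 1 library and the dotted line marks 10 CPM. DCX, FABP7 and PROM1 were at least 2-fold higher in iNSLCs than in any other library, whereas SOX2 and NES were highest in the iPSC clones and PAX6 and VIM in fibroblasts.

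The 384 2-fold peaks made up 3.64% and the 296 2-fold troughs 2.8% of the 10562 genes with at least 10 CPM in any library. At 4-fold, 147 genes (1.39%) were peaks and 78 (0.738%) were troughs. The median margin, that is the ratio to the nearest other library, was 3.13-fold for peaks and 2.83-fold for troughs. The nearest library was an iPSC clone for 285 peaks and 214 troughs, and the fibroblast library for 99 and 82. The clones themselves differed by at least 2-fold at 139 (1.5%) of the 9250 genes with 10 CPM in a clone. They were that far apart at 33 peaks and 3 troughs. By the same rule, 1689 genes peaked in fibroblasts and 1061 were troughs there. For iPSCs both clones had to pass, against the fibroblast and iNSLC libraries only, which gave 450 peaks and 467 troughs. With TMM, peaks were fewer in iNSLCs than in fibroblasts. The iPSC count rests on a different rule, and iNSLCs had 499 peaks with total counts, so these 2 states are not ranked.

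The 2-fold peaks held 2.42% of the iNSLC counts, against 0.213% in fibroblasts and 0.5% and 0.558% in the clones. The 2-fold troughs held 1.35% of the iNSLC counts, against 4.85%, 4.33% and 4.20%. Few peaks were silent elsewhere. Only 22 of the 384 (5.73%) were under 1 CPM in every other library, 112 were under 1 CPM in fibroblasts alone, 20 in both clones alone, and 59 had 10 CPM or more in all 4 libraries. Just inside the peak criterion stood ZNF711 (2.0-fold) and just outside TMEM163 (1.99-fold), with TMEM200A and MCUR1 in these places for troughs, and 50 peaks and 62 troughs lay within 10% of 2-fold.

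**Figure D2:**
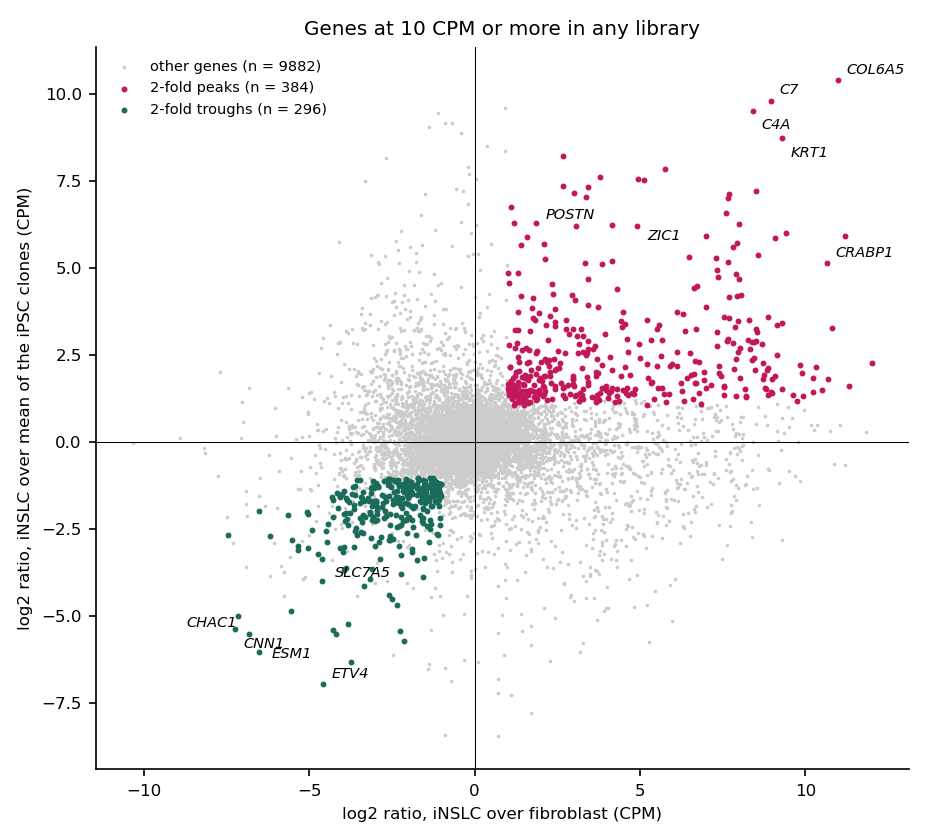
Log2 ratio of the iNSLC library to the fibroblast library (x axis) and to the mean of the iPSC clones (y axis) for genes with at least 10 CPM in any library, with libraries under 3 counts raised to 3 counts; each point is a gene. The 384 peaks fill the upper right and the 296 troughs the lower left, and the peaks reach further from the origin.

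The test was run on iNSLCs against iPSCs, the contrast with iNSLCs in which the other group had replicates, and the clones alone gave the spread. The edgeR quasi-likelihood test called 2214 genes higher and 2215 lower in iNSLCs (14.1% of 15739 each). Of the 384 peaks 378 were called higher, and of the 296 troughs 294 were called lower; the peaks and troughs had been picked on these same levels, which fixes the direction. Where edgeR values are given for single genes below, they are adjusted over all 15739 genes and refer to iNSLCs against iPSCs only.

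Among the 15 named peaks with the largest margins, COL6A5, which encodes a chain of collagen VI (ENSSSCG00000011186, chromosome 13, 2029943 to 2173774 on Sscrofa11.1), came first. It had 3741 counts (131 CPM) in iNSLCs, and no read was counted for it in the other 3 libraries. The iNSLC level was 1031 times the level that 3 counts give in clone 1, the least deeply sequenced library, and the 95% interval of the ratio to clone 1 starts at 838. NEUROD4, a proneural factor (ENSSSCG00000035778, chromosome 5, 20046937 to 20057397), was the only other peak with 0 counts in all 3 other libraries, and lay at 13.3 CPM in iNSLCs.

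C7, C4A and KRT1 followed COL6A5. C7 (ENSSSCG00000016859, chromosome 16, 25843208 to 25902707), a late component of the complement cascade, lay at 0.173 CPM in fibroblasts, 86.3 CPM in iNSLCs, and 0 and 0.0437 CPM in the clones. Its ratio to fibroblasts was 500-fold (95% interval 253 to 1158). C4A (ENSSSCG00000001427, chromosome 7, 24068070 to 24086128), an early complement component, lay at 1.30, 439, 0.844 and 0.350 CPM in the order fibroblasts, iNSLCs, clone 1 and clone 2. All other libraries were at or near 0 for both genes. KRT1, a keratin of the outer epidermis, had 2 counts in fibroblasts, 0 in the clones and 41.0 CPM in iNSLCs.

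Of the remaining leading peaks, ZIC4, a zinc finger factor of the dorsal neural tube, lay at 60.9 CPM in iNSLCs and at 0.302, 0.549 and 0.393 CPM elsewhere. CNTN2, an adhesion molecule of axons, lay at 34.8 CPM against 0, 0.422 and 0.787 CPM. LRRTM1 (a synaptic adhesion protein), P2RX3 (an ATP-gated channel of sensory neurons) and BCAS1 (a protein of myelin-forming cells) reached 16.6, 14.5 and 27.5 CPM in iNSLCs and stayed under 1 CPM in each other library. NPNT, an integrin ligand of basement membranes, was the most abundant of those that the clones also expressed, at 0.648 CPM in fibroblasts, 246 CPM in iNSLCs, and 6.29 and 5.59 CPM in the clones. TMEM100, MMRN1 and the IGF-axis genes PAPPA2 and IGFBPL1 complete the set, at 15.7 to 151 CPM in iNSLCs.

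**Figure D3:**
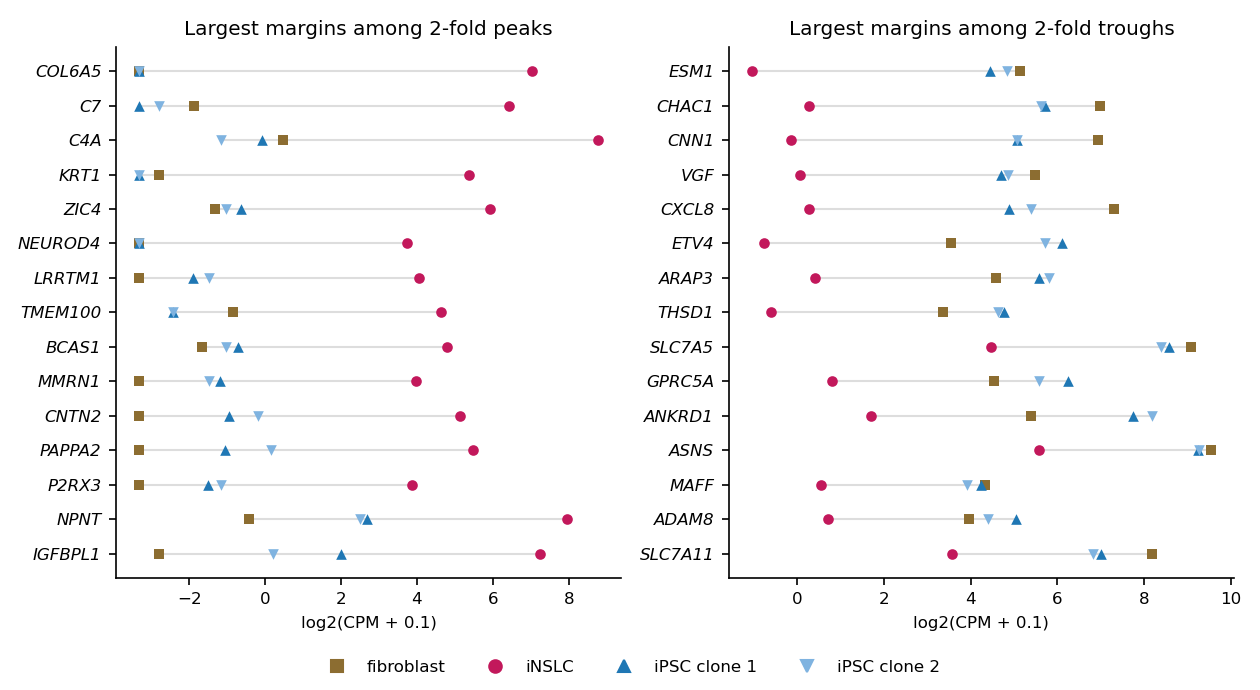
Levels of the 15 named peaks (left) and 15 named troughs (right) with the largest margins, on a log2(CPM + 0.1) axis; each symbol is 1 library. In every row the iNSLC symbol stands apart from the other 3, and the peaks include genes with 0 counts elsewhere, such as COL6A5 and NEUROD4.

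Genes that drive or mark neuronal commitment were the list with the largest share of peaks. Lists are counted here over their members with 10 CPM or more in any library; a member that reached this level in iNSLCs alone could hardly be other than a peak, so these shares describe the lists and support nothing further. Of 31 proneural and neuronal differentiation factors in the table, 12 had 10 CPM or more in any library, 7 of them in iNSLCs alone. Of these 12, 9 were 2-fold peaks (75%, against 3.64% of all genes) and none was a trough. INSM1, a zinc finger factor of newborn neurons, reached 10.6 CPM in iNSLCs, with 0.464 and 0.328 CPM in the clones and 0 counts in fibroblasts. ONECUT1 lay at 0.0648, 16, 0.760 and 2.12 CPM, and POU4F1, a factor of sensory neurons, at 0.0864, 32.0, 4.6 and 2.54 CPM. In each case the clones lay above fibroblasts and well below iNSLCs. The neuronal RNA-binding proteins ELAVL2, ELAVL3 and ELAVL4 and the factors ONECUT2 and EBF2 were the other peaks with NEUROD4. EdgeR called 22 of the 28 members tested higher in iNSLCs than in iPSCs, against 14.1% of all genes.

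Structural genes of neurons followed the same course in part. Of 24 neuronal cytoskeleton, synapse and membrane genes, 7 of which reached 10 CPM in iNSLCs alone, 10 were peaks (41.7%). NEFL, the light neurofilament chain, lay at 0.302 CPM in fibroblasts, 48.9 CPM in iNSLCs, and 7.05 and 7.39 CPM in the clones (6.77-fold over iPSCs, edgeR adjusted p = 0.00259). TAGLN3 lay at 0.0432, 14.5, 1.60 and 2.47 CPM. Besides CNTN2 and DCX, the peaks included MAP2, INA, STMN2, SYT1, SCG3 and NCAM1. Other members, such as TUBB3 with 147 CPM in iNSLCs and 113 and 108 CPM in the clones, were shared by iNSLCs and iPSCs. VGF, a neuropeptide precursor, went against the list and was the fourth deepest named trough, at 44.4, 0.942, 25.7 and 28.8 CPM.

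Axon guidance and cell adhesion genes held further peaks. Of 50 axon guidance genes, 3 of which reached 10 CPM in iNSLCs alone, 8 (16%) were peaks. Among the peaks were ROBO3 and DCC, receptors that steer commissural axons. ROBO3 lay at 1.77 CPM in fibroblasts, 31.5 CPM in iNSLCs, and 0.760 and 0.962 CPM in the clones, and DCC at 0, 23.7, 1.77 and 3.26 CPM. Of the ligands, SLIT1 reached 91.2 CPM and DRAXIN 86.8 CPM in iNSLCs, and each stayed at or under 20.6 CPM in the clones and under 1 CPM in fibroblasts. The ephrin receptor EPHA2 was the only trough, at 84.6, 26.8, 87.6 and 87.0 CPM. Of 24 cadherins and protocadherins, 2 of which reached 10 CPM in iNSLCs alone, 6 (25%) were peaks and 2 were troughs. CDH7 and CDH10 were the clearest of them at 36.2 and 59.4 CPM in iNSLCs, and both were at or near 0 in fibroblasts. PCDH9 was a trough at 3.14 CPM, but its clones were 63.0 and 16.7 CPM and it was not called by edgeR (adjusted p = 0.0535). Of 25 ion channel genes, 4 were peaks (KCNK10, SCN1A, CACNA1G and CACNA2D2) and 2 were troughs (CACNA1H and CACNA2D1).

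Transcription factors of the neural crest and of the neural plate border were the next group. Of 16 neural crest and Schwann cell genes, 5 of which reached 10 CPM in iNSLCs alone, 8 (50%) were peaks. ZIC1 (ENSSSCG00000011692, chromosome 13, 87745751 to 87752919), which lies beside ZIC4 in the genome, was at 6.07 CPM in fibroblasts, 182 CPM in iNSLCs, and 2.83 and 2.08 CPM in the clones. PAX3 was at 0.972, 21.6, 1.14 and 2.12 CPM, DLX5 at 1.90, 44.0, 3.38 and 4.98 CPM, and TFAP2A at 11.3, 93.0, 6.97 and 4.0 CPM. PAX7, MSX1, NR2F1 and TFAP2B were the other peaks. The migratory crest genes SNAI2 and TWIST1 were not among them: both were highest in fibroblasts, with 12.9 and 11.2 CPM in iNSLCs. ETS1 was a trough at 238, 30.3, 74.1 and 65.9 CPM. The list of radial glia and neural progenitor genes shares ZIC1, PAX3 and NR2F1 with the crest list. Among its 27 genes, 5 of which reached 10 CPM in iNSLCs alone, 7 (25.9%) were peaks. PTPRZ1, a receptor phosphatase of radial glia, was one of them at 17.4 CPM in iNSLCs against 0.173, 2.70 and 4.24 CPM elsewhere. OTX2, SOX21 and ZIC2 in the same list were highest in the clones. EdgeR called 15 of 22 crest genes and 13 of 32 radial glia genes higher in iNSLCs than in iPSCs, and 4 of each lower. Among all genes tested the share was 14.1% each way.

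Patterning genes of the retinoic acid and HOX groups included some of the largest differences. CRABP1, which binds retinoic acid in the cytoplasm (ENSSSCG00000021873, chromosome 7, 47601991 to 47609624), lay at 0.389 CPM in fibroblasts, 627 CPM in iNSLCs, and 24.5 and 10.8 CPM in the clones (25.6-fold over clone 1, 95% interval 23.6 to 27.8). MEIS2, a HOX cofactor, lay at 18.4, 109, 26 and 24.2 CPM. These were the 2 peaks among 21 retinoic acid genes; CYP26A1, which degrades retinoic acid, was at 15.5 CPM in iNSLCs and 158 and 163 CPM in the clones. Only 6 HOX genes reached 10 CPM anywhere, 5 of them in iNSLCs alone, so their share of peaks was close to fixed. The 4 peaks (against 3.64% of all genes) included HOXA3, HOXB2 and HOXB4, genes toward the 3′ end of their clusters. HOXA3 lay at 1.40, 15.2, 0.633 and 0.546 CPM. HOXB2 and HOXB4 were 2.49- and 2.54-fold above fibroblasts, and HOXB4 was not called against iPSCs (edgeR adjusted p = 0.0556). With total counts, 7 HOX genes were peaks.

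WNT signalling works through secreted ligands, Frizzled receptors and β-catenin, and its targets include feedback inhibitors of the pathway itself. Of 17 WNT targets, 3 of which reached 10 CPM in iNSLCs alone, 8 (47.1%) were peaks and none was a trough. AXIN2, a feedback inhibitor (ENSSSCG00000017265, chromosome 12, 12311298 to 12343200), lay at 6.82 CPM in fibroblasts, 214 CPM in iNSLCs, and 35.1 and 26.2 CPM in the clones. SP5, a transcriptional repressor, lay at 1.47, 58.8, 7.30 and 8.15 CPM, NKD1 at 2.92, 49.8, 7.73 and 10.6 CPM, and CDX2, a caudal factor, at 0, 23.6, 2.45 and 3.87 CPM. For all 4 the clones were above fibroblasts but below iNSLCs. LEF1, RNF43, ZNRF3 and TNFRSF19 completed the set. TBXT, LGR5, BMP4 and CDX4, which stand on the same list, were highest in the clones. The iPSC medium held IWP2, which blocks WNT secretion, so medium and state cannot be told apart here.

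Ligands and receptors of the pathway were mixed. Among 27 genes, 3 of which reached 10 CPM in iNSLCs alone, 3 were peaks, and 5 with total counts. FZD10, a receptor, lay at 2.46 CPM in fibroblasts, 171 CPM in iNSLCs, and 11.7 and 14.1 CPM in the clones (13.3-fold over iPSCs, edgeR adjusted p = 0.00131). The ligands WNT7B and WNT4 reached 16.8 and 15 CPM in iNSLCs and stayed under 3 CPM elsewhere. DKK3 was the only trough, at 187, 19.9, 57.8 and 65.1 CPM.

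Notch signalling between neighbouring cells holds some of them back from neuronal commitment. Of 14 Notch genes, 1 of which reached 10 CPM in iNSLCs alone, 4 (28.6%) were peaks. DLL1, the ligand that newborn neurons present to their neighbours, lay at 6.85, 36.8, 3.42 and 3.87 CPM, and HES6, an antagonist of HES1, at 4.25, 54.8, 11 and 9.75 CPM. HES4 and DTX4 were the other peaks, while HES1 itself was highest in the clones (27.3 CPM in iNSLCs, 40.3 and 30.8 CPM in the clones). BMP targets and antagonists went both ways. MSX1 (10.8, 134, 21.4 and 17.9 CPM), DLX5 and GATA3 were peaks, and the inhibitory SMAD genes SMAD7 (42.0, 8.62, 56.7 and 35.8 CPM) and SMAD6 were troughs, among 21 genes. Of 13 SOX and POU genes, 3 of which reached 10 CPM in iNSLCs alone, SOX3, SOX6, SOX12 and POU4F1 were peaks.

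The complement system, a cascade of plasma proteins that marks cells for clearance, held 7 peaks among 13 genes (53.8%), 3 of which reached 10 CPM in iNSLCs alone. Besides C7 and C4A these were CFI, SERPING1, C3, C2 and CFB. SERPING1, an inhibitor of the cascade, lay at 68.7 CPM in fibroblasts, 390 CPM in iNSLCs, and 56.3 and 70.5 CPM in the clones (5.53-fold over clone 2, 95% interval 5.32 to 5.75). CFI, a protease that inactivates C3b and C4b, lay at 2.16, 14.6, 1.18 and 1.86 CPM. C3 lay at 49.9, 132, 2.49 and 2.78 CPM, so that it was shared with fibroblasts in part. C1S reached 528 CPM in iNSLCs and 281 CPM in fibroblasts, just short of 2-fold, and C6 was highest in the clones. EdgeR called 10 of 22 complement genes higher in iNSLCs than in iPSCs, against 14.1% of all genes. C4 genes can have near-identical copies, between which reads may have been split.

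Of 30 interferon-stimulated genes, 4 of which reached 10 CPM in iNSLCs alone, 6 (20%) were peaks. In 26 of the 30 (25 with total counts) the lowest level was in an iPSC clone. Either clone could be the lowest here, and the share of all genes lowest in a clone was not taken. GBP1 lay at 10.8, 142, 8.70 and 10.5 CPM, but in the annotation it spans GBP2, so their reads may be mixed. MX2, LGALS3BP and GBP2 were peaks as well, and MX2 has a close paralog in MX1. PARP14 lay at 6.05, 26.3, 0.676 and 0.699 CPM, and the chemokine CXCL10 at 0.324, 12.0, 0.507 and 1.62 CPM. Fibroblasts held the highest level of 16 of the 30 genes (12 with total counts), among them IFIT1 and MX1. EdgeR called 26 of 38 members tested higher in iNSLCs than in iPSCs and 1 (HERC5) lower, against 14.1% of all genes each way. Of 14 antigen presentation genes, 2 reached 10 CPM in iNSLCs alone and 3 were peaks. NLRC5 (1.08, 11.2, 1.73 and 2.25 CPM), an activator of class I genes, and the immunoproteasome subunit PSMB9 were peaks. The last peak, ERAP2, was 2.02-fold above fibroblasts and fell under 2-fold with RLE scaling.

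Matrix genes were for the most part intermediate. Of 39 fibroblast and matrix genes, 31 lay between the lowest and highest other library in iNSLCs, against 51.7% of all genes at 1 CPM. EdgeR called 26 of 39 higher in iNSLCs than in iPSCs, against 14.1% of all genes. POSTN, a matricellular protein (ENSSSCG00000009361, chromosome 11, 13224959 to 13259033), was the only 2-fold peak of the list. It lay at 39.5 CPM in fibroblasts, 702 CPM in iNSLCs, and 7.77 and 11.0 CPM in the clones, 17.8-fold above fibroblasts (95% interval 16.9 to 18.6). OGN, a small leucine-rich proteoglycan, was likewise a peak at 12.7, 54.6, 1.22 and 0.874 CPM. LOXL2, which cross-links collagen, was a trough at 1097, 89.9, 204 and 233 CPM. Fibroblasts held the highest level of 35 of the 39 genes (31 with total counts), and iNSLCs of 3 (7). The share of all genes highest in fibroblasts was not taken.

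**Figure D4:**
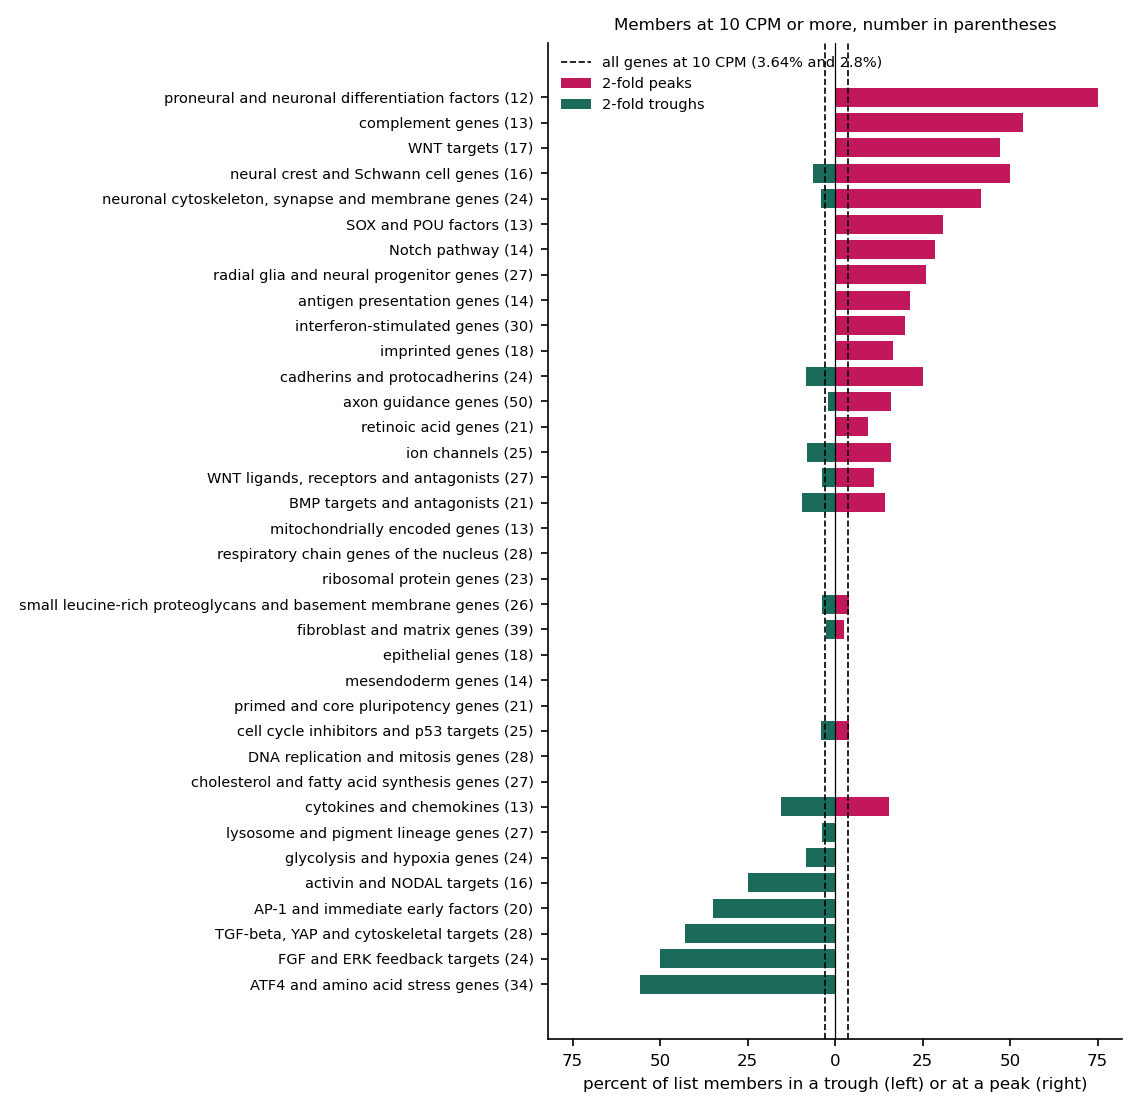
Percent of the members of each gene list that were 2-fold peaks (right, crimson) or 2-fold troughs (left, green) in iNSLCs, for lists with at least 10 members at 10 CPM or more (number in parentheses); dashed lines mark the share among all genes (3.64% and 2.8%). Proneural factors (75%), complement genes (53.8%), neural crest genes (50%) and WNT targets (47.1%) lead on the right, and ATF4 and amino acid stress genes (55.9%) and FGF and ERK targets (50%) on the left.

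ATF4 is a transcription factor that cells make when amino acids run short or the endoplasmic reticulum is stressed, and its targets import amino acids, make serine, glycine and asparagine, and charge tRNAs. Of 34 genes of this list, 19 (55.9%, against 2.8% of all genes) were 2-fold troughs and none was a peak. The iNSLC library was the lowest of the 4 for 28 of the 34, against 2875 of all 10562 genes at 10 CPM. ATF4 itself (777, 177, 474 and 476 CPM) was one of the troughs, 2.68-fold below iPSCs.

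The enzymes and transporters of amino acid supply showed the largest gaps. CHAC1, which degrades glutathione (ENSSSCG00000038521, chromosome 1, 130357291 to 130364053), lay at 127 CPM in fibroblasts, 1.12 CPM in iNSLCs, and 52.8 and 48.9 CPM in the clones. It was 43.8-fold below clone 2, the nearest library (95% interval 30.9 to 64.2). ASNS, asparagine synthetase (ENSSSCG00000015340, chromosome 9, 77318341 to 77336290), lay at 745, 47.9, 603 and 619 CPM. The transporters SLC7A5, for large neutral amino acids, and SLC7A11, for cystine, lay at 540, 22.1, 379 and 334 CPM and at 291, 11.8, 129 and 113 CPM. For these 4 genes fibroblasts had the highest level. The iNSLCs stood 9.59- to 43.8-fold below the nearest library, which was an iPSC clone in each case.

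Serine synthesis (PHGDH, PSAT1 and PSPH), one-carbon metabolism (MTHFD2), tRNA synthetases (GARS1, AARS1 and CARS1) and further transporters (SLC7A1 and SLC1A5) were among the other troughs. The stress genes TRIB3, NUPR1, ATF5 and STC2 and the enzyme gene CBS made up the rest. PSAT1 lay at 663, 16.5, 128 and 132 CPM, and PHGDH at 275, 27.4, 122 and 122 CPM. SHMT2, SARS1 and CTH were also lowest in iNSLCs but by under 2-fold. WARS1 and ALDH1L2 were the main exceptions, with the clones lowest. EdgeR called 26 of 35 members lower in iNSLCs than in iPSCs and 2 higher, against 14.1% of all genes each way. The count of 19 troughs was the same with total counts.

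The FGF and ERK pathway, in which receptor tyrosine kinases activate the kinase ERK and its targets feed back to damp the signal, formed the second group. Of 24 feedback targets and response genes, 12 (50%) were 2-fold troughs, 7 of them 4-fold, and none lay highest in iNSLCs. ETV4, an ETS factor (ENSSSCG00000017379, chromosome 12, 19531603 to 19548300), lay at 11.7 CPM in fibroblasts, 0.489 CPM in iNSLCs, and 68.7 and 52.5 CPM in the clones. SPRY4, an inhibitor of the pathway, lay at 15.4, 3.21, 145 and 133 CPM. For these 2 genes fibroblasts were the nearer library. PHLDA1 (93.1, 11.5, 92.7 and 88.2 CPM) and FOSL1 (41.4, 1.88, 13.8 and 13.7 CPM) were instead level between the end states or higher in fibroblasts. CCND1, EGR1, MYC, PLAUR, IER3, SPRED1, ETV1 and ETV5 were the other troughs. DUSP6 (8.4, 3.35, 140 and 146 CPM) and SPRY1 were lowest in iNSLCs too but too weak in fibroblasts for the criterion. With total counts, ETV4 fell out for that reason, since its fibroblast level dropped below 10 CPM, and 10 members were troughs. Basic FGF was part of the iPSC medium and the iNSLCs grew in NSM, so medium and state cannot be told apart for these differences.

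AP-1 and immediate early factors overlap with that list. Of 20 genes, 7 (35.0%) were troughs, among them MAFF, a small MAF protein (20.1, 1.36, 18.7 and 15 CPM), NR4A1, an orphan nuclear receptor (25.4, 5.20, 40.5 and 41.9 CPM), and MYC (90.2, 8.48, 45.4 and 38.7 CPM). KLF6, FOSL1, EGR1 and IER3 were the others. FOS and JUN were not: FOS was lowest in fibroblasts (10.8 CPM, and 23.2 CPM in iNSLCs), and JUN was lowest in clone 2. NR4A3 was highest in iNSLCs, at 26.3 CPM against 11.6 to 19.6 CPM elsewhere.

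The third group comprised targets of TGF-β, of the YAP coactivator, and of the actin cytoskeleton, with 12 troughs among 28 genes (42.9%). CNN1, the smooth muscle protein calponin (ENSSSCG00000013614, chromosome 2, 70183235 to 70190758), lay at 123 CPM in fibroblasts, 0.803 CPM in iNSLCs, and 33.4 and 33.5 CPM in the clones. It was 41.6-fold below the nearest clone (95% interval 27.5 to 66.0). ANKRD1, a YAP target, lay at 41.7, 3.14, 215 and 291 CPM, and TPM2, a tropomyosin, at 745, 22.8, 199 and 179 CPM. Of these, ANKRD1 was highest in the clones, and CNN1 and TPM2 in fibroblasts. The troughs also included ACTA2, MYL9, TPM1, VCL, CNN2, CCN2, F3 and TEAD4. FLNA, CALD1 and CCN1 had iNSLC levels below every other library by under 2-fold. EdgeR called 20 of 29 members lower in iNSLCs than in iPSCs and 1 higher, against 14.1% of all genes each way.

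Activin and NODAL targets overlapped with this set only in part. Of 16 genes, 4 were troughs, among them SMAD7, PMEPA1 and SKIL, which respond to TGF-β in many cells. PMEPA1 lay at 38.0, 10.3, 66.5 and 46.8 CPM and SKIL at 144, 49.5, 113 and 121 CPM. NODAL, LEFTY2, CER1 and NANOG were under 1 CPM in both fibroblasts and iNSLCs and are no troughs. Activin A and TGF-β1 were present in the iPSC medium and the iNSLCs grew in NSM, so medium and state cannot be told apart here.

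**Figure D5:**
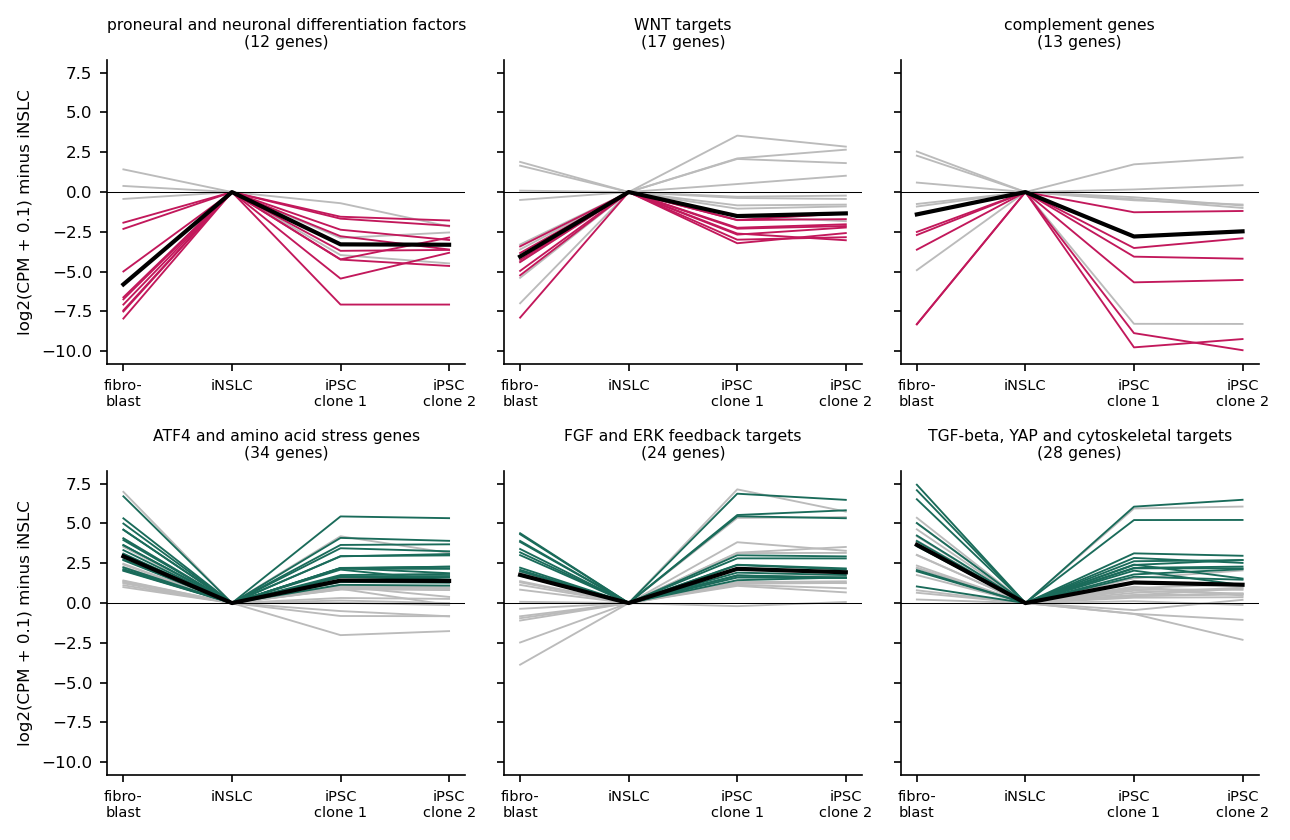
Level of each member with at least 10 CPM in any library relative to its iNSLC level, in log2(CPM + 0.1), across the 4 libraries for 6 lists; thin lines are genes (crimson peaks, green troughs, grey neither) and the black line is the list median. In the upper panels (proneural factors, WNT targets, complement) the medians of the other libraries lie below iNSLCs, and in the lower panels (ATF4, FGF and ERK, TGF-β and YAP) above.

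Of 13 cytokine and chemokine genes at 10 CPM, 2 (15.4%) were peaks and 2 (15.4%) were troughs, and the rest were neither. The shares of all genes were 3.64% and 2.8%, and 2 members reached 10 CPM in iNSLCs alone. CXCL8, which attracts neutrophils (ENSSSCG00000008953, chromosome 8, 69932644 to 69935861), lay at 159 CPM in fibroblasts, 1.12 CPM in iNSLCs, and 29.4 and 42.1 CPM in the clones, and its neighbour CXCL2 at 122, 1.67, 10.9 and 10.8 CPM. Both were lowest in iNSLCs by 6.45-fold or more. In contrast CXCL10 and CXCL12 (2.98, 13.1, 1.44 and 3.54 CPM) were peaks. CXCL chemokines belong to a family of similar genes, and reads may have been shared.

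The other named troughs with the largest margins stood outside these groups. ESM1, a secreted proteoglycan of endothelium (ENSSSCG00000016900, chromosome 16, 34184256 to 34193269), had the largest of all. It lay at 35.3 CPM in fibroblasts, 0.384 CPM in iNSLCs, and 21.5 and 28.7 CPM in the clones, 56.1-fold below clone 1 (95% interval 31.1 to 113). ARAP3, a GTPase-activating protein, lay at 23.8, 1.22, 47.7 and 55.7 CPM, GPRC5A, an orphan receptor, at 23.3, 1.64, 75.3 and 47.2 CPM, and ADAM8, a metalloprotease, at 15.5, 1.54, 33.1 and 21.0 CPM. In all 3 the clones were above fibroblasts. THSD1 lay at 10.2, 0.558, 26.9 and 24.5 CPM, and with total counts its fibroblast level dropped under 10 CPM. VEGFA, the endothelial growth factor, was a trough at 293, 28.5, 154 and 88.1 CPM with the glycolytic enzyme PFKP, and its receptor FLT1 was another at 14.7, 4.96, 80.2 and 65.3 CPM. SQSTM1, an autophagy adaptor, lay at 439, 96.4, 374 and 341 CPM.

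Several classes of genes held no extreme of this size. No 2-fold peak or trough was found among 28 DNA replication and mitosis genes, 27 cholesterol and fatty acid synthesis genes, 23 ribosomal protein genes, 28 nuclear and 13 mitochondrial respiratory chain genes, 21 primed and core pluripotency genes, 18 epithelial genes or 14 mesendoderm genes. Replication and mitosis genes lay between the lowest and highest other library in 25 of 28 cases. This held for 17 of 18 epithelial and 18 of 21 core pluripotency genes, and for 51.7% of all genes at 1 CPM. By rank alone, iNSLCs were the lowest library for 21 of 28 nuclear respiratory chain genes and 18 of 27 cholesterol and fatty acid genes. Among all 10562 genes at 10 CPM this held for 2875. With total counts these were 1 of 28 and 14 of 27, and 2056 of all 14137 genes at 1 CPM. The pig counterparts of the vector genes likewise lay between in all 8 measured cases at 10 CPM. Of 9 naive pluripotency genes only ESRRB, an orphan nuclear receptor, was a peak, at 0, 30, 9.75 and 4.06 CPM (edgeR adjusted p = 0.0423). Of 25 cell cycle inhibitors and p53 targets, CDKN1C (8.87, 37.8, 8.36 and 12.1 CPM) was a peak and PLK2 a trough. CDKN1C is also imprinted, as are PEG3 (6.0, 58.6, 2.53 and 11.7 CPM) and PPP1R9A, the other peaks among 18 imprinted genes.

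Of further cell types, blood and immune, endothelial, muscle and chondrocyte markers held few peaks, while most keratinocyte genes at 1 CPM were highest in iNSLCs. Of 20 blood and immune cell genes, 2 reached 10 CPM in any library and neither was a peak. Of 14 endothelial genes TIE1 alone was a peak (10.4 CPM), and PECAM1 was at 19.5 and 21.5 CPM in fibroblasts and iNSLCs. KRT1 and KRT10, the keratin pair of differentiated epidermis, were both peaks, with KRT10 at 4.10, 15.7, 5.70 and 5.42 CPM. Of the 3 keratinocyte genes at 10 CPM in any library, 2 reached it in iNSLCs alone. Of 7 muscle and 8 chondrocyte genes at 10 CPM only SOX6 was a peak (13.2 CPM), and the pigment and lysosome list held no peak. Summed over the list, endothelial genes were at 57.2 CPM in fibroblasts, 72.3 CPM in iNSLCs, and 255 and 308 CPM in the clones, and blood and immune genes at 204, 31, 33.7 and 30.5 CPM. The 8 keratinocyte genes summed to 12.9, 195, 251 and 258 CPM, although 5 of the 6 that reached 1 CPM were highest in iNSLCs. The part of any admixed cells in the peaks was not tested.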

How the data were processed

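RNA from 4 porcine cultures (fibroblasts, iNSLCs and 2 iPSC clones, 1 library each) was sequenced by the authors. The deposited values are raw read counts per gene. The submitters' processing notes name Trim Galore 0.4.0, STAR 2.5.3a and featureCounts 1.5.2 with genome build Sscrofa11.1. No source used here gives the strand setting, so antisense and overlapping genes cannot be told apart. Total counts per library ran from 21640374 to 62421521. Of the 25880 genes, 14857 were named by identifier and 1532 by position, and 9491 had no symbol.

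Counts were scaled by TMM in edgeR 4.0.16 (R 4.3.3) and expressed as CPM. For ratios, libraries under 3 counts were raised to 3 counts. Intervals are exact 95% conditional binomial intervals. Peaks and troughs needed 10 CPM and a 2-fold (or 4-fold) margin as defined in the report, and ranks used genes with 1 CPM. The edgeR quasi-likelihood test (two-sided, Benjamini-Hochberg, threshold 0.05) compared iNSLCs with iPSCs. All 4 libraries entered in 3 groups with 1 residual degree of freedom, from the clones, so that p-values measure the spread between these clones of 1 animal, and the lone iNSLC library was assumed to vary like them. The fit was also run on simulated data, but the outcome is not given here and nothing rests on it. Python 3.11.15 with scipy 1.17.1 was used for the rest.

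The genes named are the 15 named peaks and 15 named troughs with the largest margins, up to 4 members per list and direction, and all neural stem cell markers. Other list members are named where they complete a count or go against their list, and were chosen after their values were seen. The members and gene lists were chosen with earlier results of these data known. Alternatives were total-count and RLE scaling, other CPM minimums, another floor, each clone left out, and DESeq2 1.42.0. Some genes of the lists are not reported here by name, though they stay in the counts.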

Additional observations from a re-analysis of the deposited data

How the results depend on the processing

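The number of genes that qualified depended mainly on the minimum level. With 1 CPM in place of 10 CPM there were 915 peaks and 493 troughs at 2-fold and 378 and 140 at 4-fold, and with 30 CPM there were 201, 184, 69 and 47. Without TMM, scaling by total counts raised iNSLCs by 0.58 log2 relative to fibroblasts. It gave 499 peaks and 220 troughs at 2-fold, among which were all 384 peaks and 215 of the 296 troughs, and 172 and 54 at 4-fold, while 4701 genes lay above and 2056 below every other library. Ranked over genes with 10 CPM in any library, 2138 genes lay above all others. RLE scaling gave 379 peaks and 306 troughs. Leaving out either clone gave 418 to 461 peaks and 326 to 369 troughs at 2-fold, and 159 to 175 and 86 to 95 at 4-fold, since fewer libraries then had to be passed. The edgeR alternatives called 2094 to 2332 genes higher and 2006 to 2324 lower, and DESeq2 1668 and 1966. With total counts the troughs ETV4, THSD1, SKIL, PLK2, PCDH7 and FLT1 no longer met the criterion, and the peak counts of neural stem cell markers, HOX genes and WNT ligands and receptors were 5, 7 and 5. PAX6, highest in fibroblasts, was then highest in iNSLCs, and nuclear respiratory chain genes lowest in iNSLCs went from 21 to 1 of 28. No paired analysis was possible because the fibroblast and iNSLC groups have 1 library each. Both groups lack a replicate, which limits every comparison between them.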

Other observations

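Most peaks and troughs stood on none of the gene lists, 285 of 384 and 229 of 296. The genes named here were chosen after their values were seen.
Among the unlisted peaks were homeodomain and related factors that pattern the neural tube. LMX1B, a factor of the midbrain and dorsal spinal cord, lay at 0.259 CPM in fibroblasts, 62.1 CPM in iNSLCs, and 2.03 and 2.38 CPM in the clones. NKX6-1, a ventral factor, lay at 0.561, 27.7, 5.45 and 4.63 CPM in the same order, and OLIG3, a dorsal factor, at 0, 15.9, 0.676 and 1.07 CPM. LMX1A, GBX2, DLX1, IRX3 and IRX5 were peaks too. Factors of dorsal and ventral, and of anterior and posterior, regions were thus found in the same bulk library, which does not tell whether the same cells expressed them.

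Among the unlisted troughs were genes of the caveolar membrane and of redox metabolism. CAV1, the main caveolar coat protein, lay at 1368 CPM in fibroblasts, 96.0 CPM in iNSLCs, and 446 and 563 CPM in the clones, and CAV2 at 257, 11.5, 68.1 and 68.2 CPM. SRXN1, which repairs oxidised peroxiredoxins, lay at 142, 19.9, 139 and 127 CPM. PCK2, the mitochondrial enzyme that makes phosphoenolpyruvate, lay at 255, 16.2, 149 and 141 CPM. The ligand genes TGFB1 and INHBA, which encodes an activin subunit, were troughs at 2.44 and 7.12 CPM in iNSLCs.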
